A study of Caenorhabditis elegans with 12 samples.

Results

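The genes described here are core regulators of cell division in Caenorhabditis elegans: cyclins, the kinases they activate and a kinase inhibitor. They were chosen by name from a fixed set of 10 genes, and 9 of these names occur among the 16309 genes of the authors' deposited table: cyb-1, cyb-2.1, cyb-2.2, cyb-3, cye-1, cyd-1, cdk-1, cdk-2 and cki-1. The tenth, cya-1, does not occur under that name. RefSeq's table for the WBcel235 assembly pairs it with the sequence name ZK507.6, which is listed, so its values are given beside the 9 and are not counted among them.

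Cyclin-dependent kinases drive the cell cycle once a cyclin binds them. D-type cyclins act with their kinase partner at the entry into the cycle, cyclin E acts with CDK-2 at the start of DNA replication, and A- and B-type cyclins act with CDK-1 in mitosis and meiotic divisions. Inhibitors of the p27 type, such as CKI-1, hold cells in arrest. In larvae of the last stage, most dividing cells are in the germ line, where mitotic germ cells, meiotic cells and forming oocytes use these genes, while vulval and other somatic divisions are ending.

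RNA was sequenced from whole late L4 animals of 4 genotypes, with 3 samples each. Wild type was the N2 Bristol strain. The first mutant, strain MT15024, carries mir-58(n4640) on chromosome IV. MT18409 adds the deletion nDf53 on chromosome III, which removes mir-80 (the double mutant), and MT15563 further adds nDf54 on chromosome X, which removes mir-81 and mir-82 (the quadruple mutant). Collection took place 33 h after transfer to food for wild type and mir-58, with the double mutant 6 h later than wild type and the quadruple mutant 15 h later, because they develop more slowly, so that genotype and collection time cannot be told apart in these strains. All groups were fed bacteria carrying light lysine and arginine and collected in bulk, each genotype is represented by 1 strain, and the labels do not say whether the 3 samples came from separate cultures, so p-values may measure technical spread.

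All fold changes below are log2 values against wild type, and a gene was called higher or lower when its adjusted p-value was under 0.05, both from the authors' deposited table. The table gives no counts, standard errors or values per sample, so neither sequencing depth nor replicate spread is known. It holds no expression level, so genes cannot be ranked by abundance, and in whole animals fewer cells of a type cannot be told from less RNA per cell. The 3 comparisons share the same wild-type samples. Of all listed genes, 7.44% were called in mir-58 (1.65% higher and 5.79% lower). The share was 16.4% for the double mutant (10.5% higher and 5.86% lower) and 24.0% for the quadruple mutant (14.2% higher and 9.82% lower).

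B-type cyclin genes carried the calls. Of the 9 genes, none was called in mir-58, while cyb-1 and cyb-2.2 rose in the double mutant (2 of 9, or 22.2%, against 16.4% of all genes) and in the quadruple mutant (2 of 9, or 22.2%, against 24.0%). None was called lower in any mutant. Shares of this size are near those of all genes and do not set the 9 apart.

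The gene cyb-1 encodes a cyclin B that activates CDK-1 in mitosis. Per the authors' deposited table it stood at -0.16 in mir-58 (adjusted p = 0.735), at 0.77 in the double (adjusted p = 0.0127) and at 0.76 in the quadruple mutant (adjusted p = 0.0127). On a linear scale the last values are 1.71-fold and 1.69-fold wild type. The level was thus near wild type without mir-58 alone and higher in each multiple mutant.

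The paralogue cyb-2.2 had the widest spread of values among the members, with -0.73 in mir-58 (adjusted p = 0.144), 1.09 in the double (adjusted p = 0.0315) and 1.13 in the quadruple mutant (adjusted p = 0.0161), per the authors' deposited table. These are 0.603-fold, 2.13-fold and 2.19-fold of wild type, and only the values of the multiple mutants passed the threshold. Its sister gene cyb-2.1 had values of -0.58, 0.77 and 0.66 (adjusted p = 0.277, 0.208 and 0.266), per the authors' deposited table, none of them a call. The genes cyb-2.1 and cyb-2.2 are close copies, and how the authors counted reads that match both is not given in the sources used here, so the split of signal between them is uncertain.

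The fourth B-type cyclin gene, cyb-3, encodes a B3-type cyclin needed for chromosome segregation in embryos. It lay below wild type in each comparison, at -0.42, -0.29 and -0.36 per the authors' deposited table, without a call (adjusted p = 0.180, 0.516 and 0.335). In the multiple mutants its values therefore stood on the other side of 0 from those of cyb-1, cyb-2.1 and cyb-2.2. Whether cyb-3 differed from the other B-type genes in its response was not tested, because the table gives no error per gene.

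**Figure D1:**
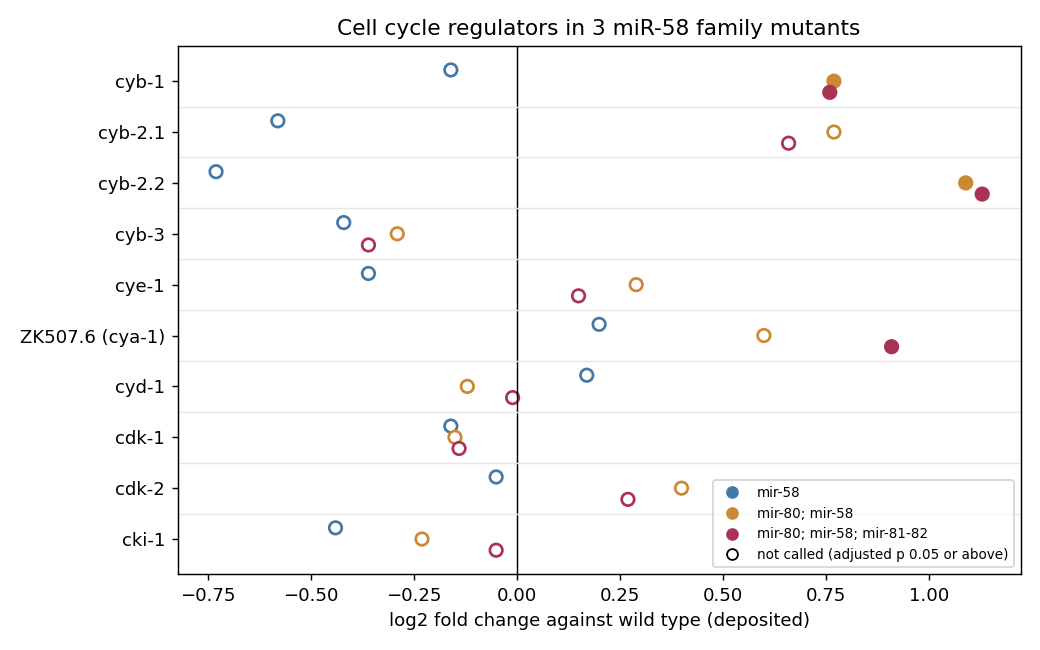
Log2 fold change against wild type (horizontal axis) of the 9 cell cycle genes and of ZK507.6 (cya-1), one row per gene, in the 3 mutants (colours); filled points were called at adjusted p under 0.05. The filled points are those of cyb-1 and cyb-2.2 in both multiple mutants, at 0.76 to 1.13, and of ZK507.6 in the quadruple mutant at 0.91.

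Outside the B-type genes, the other 5 genes named in the table had values between -0.44 and 0.40. Cyclin E, encoded by cye-1, had values of -0.36, 0.29 and 0.15 per the authors' deposited table (adjusted p = 0.342, 0.569 and 0.780). Its kinase partner gene cdk-2 stood at -0.05, 0.40 and 0.27 per the authors' deposited table (adjusted p = 0.991, 0.512 and 0.679). Neither was called in any mutant, and each had its highest value in the double mutant.

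The mitotic kinase gene cdk-1 gave -0.16, -0.15 and -0.14 per the authors' deposited table, the narrowest span of any member (adjusted p = 0.769, 0.835 and 0.825). The D-type cyclin gene cyd-1, which promotes entry into the cycle in larval cell lineages, was at 0.17, -0.12 and -0.01 per the authors' deposited table (adjusted p = 0.806, 0.910 and 1). For the inhibitor gene cki-1 the values were -0.44, -0.23 and -0.05 per the authors' deposited table (adjusted p = 0.264, 0.716 and 0.963). None of the 3 was called, and in each mutant their values were nearer to 0 than the smallest change called in the table.

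The A-type cyclin gene cya-1, listed as ZK507.6, was at 0.20, 0.60 and 0.91 (adjusted p = 0.712, 0.119 and 0.00463), per the authors' deposited table. It rose in the quadruple mutant, at 1.88-fold wild type, and this was the smallest adjusted p among the 10 genes. In the WBcel235 annotation the gene overlaps dos-1 on the other strand, and the sources used here do not say whether the library kept strand, so reads of these genes may not be told apart. The overlapping dos-1 had no call, with -0.58, -0.08 and -0.74 (adjusted p = 0.243, 0.978 and 0.250), per the authors' deposited table.

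Each comparison of the 9 genes was then set beside all listed genes. In mir-58 their median log2 fold change was -0.36, against -0.06 for all genes. Values below 0 were found for 8 of the 9, cyd-1 being the exception, and for 55.3% of all genes. Relative to the median of all genes, 7 of the 9 were below 0, since cdk-2 then stood at 0.01. None of these was called, and unadjusted p-values, recovered by assuming that the authors used Benjamini-Hochberg adjustment on the listed genes, fell under 0.05 for 3 of the 9: cyb-2.2 (0.0177), cyb-3 (0.0248) and cki-1 (0.0479), all lower. Of all listed genes, 18.5% had a recovered unadjusted p under 0.05 in mir-58, and 13.1% of all genes had one and were lower.

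In the double mutant the median of the 9 genes was 0.29 against 0.08 for all genes, and 5 of the 9 were above 0, as were 54.9% of all genes. In the quadruple mutant the median was 0.15 against 0.11, with 5 of 9 above 0 and 55.7% of all genes. Relative to that median of 0.11, cyb-1 and cyb-2.2 stood at 0.65 and 1.02. Without cyb-2.1 and cyb-2.2, the median of the remaining 7 genes was below 0, at -0.12 in the double mutant and -0.01 in the quadruple (-0.16 in mir-58). Among all listed genes, cyb-2.2 lay at the 86.1 percentile in the double and the 83.5 percentile in the quadruple mutant, and cyb-1 at the 81.5 and 76.8 percentile.

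The size of a change that the authors' test could call was read from the table itself. The smallest log2 change of any called gene was 0.50 in mir-58 and 0.60 in each multiple mutant, which is 1.41-fold and 1.52-fold. Of the 9 genes, 7 had smaller changes in mir-58, and 6 in each multiple mutant. For these a missing call says only that any change was too small to be called with 3 samples per group.

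Among the genes with larger changes, the same fold did not bring the same p-value. In the double mutant cyb-1 and cyb-2.1 both stood at 0.77 per the authors' deposited table, yet cyb-1 was called and cyb-2.1 was not (adjusted p = 0.0127 and 0.208). Of the 706 other genes within 0.05 of that size in either direction, 35.8% were called. The adjusted p of cyb-1 was smaller than that of 86.3% of these genes, and that of cyb-2.1 smaller than that of 45.9%. The changes of cyb-3 were below the smallest called in each mutant. Genes within 0.05 of its size lay below that limit too, so a call among them was excluded in advance. The adjusted p of cyb-3 was smaller than that of 86.9% to 89.4% of those genes in the 3 mutants. The depth and spread that set these p-values are not in the table.

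**Figure D2:**
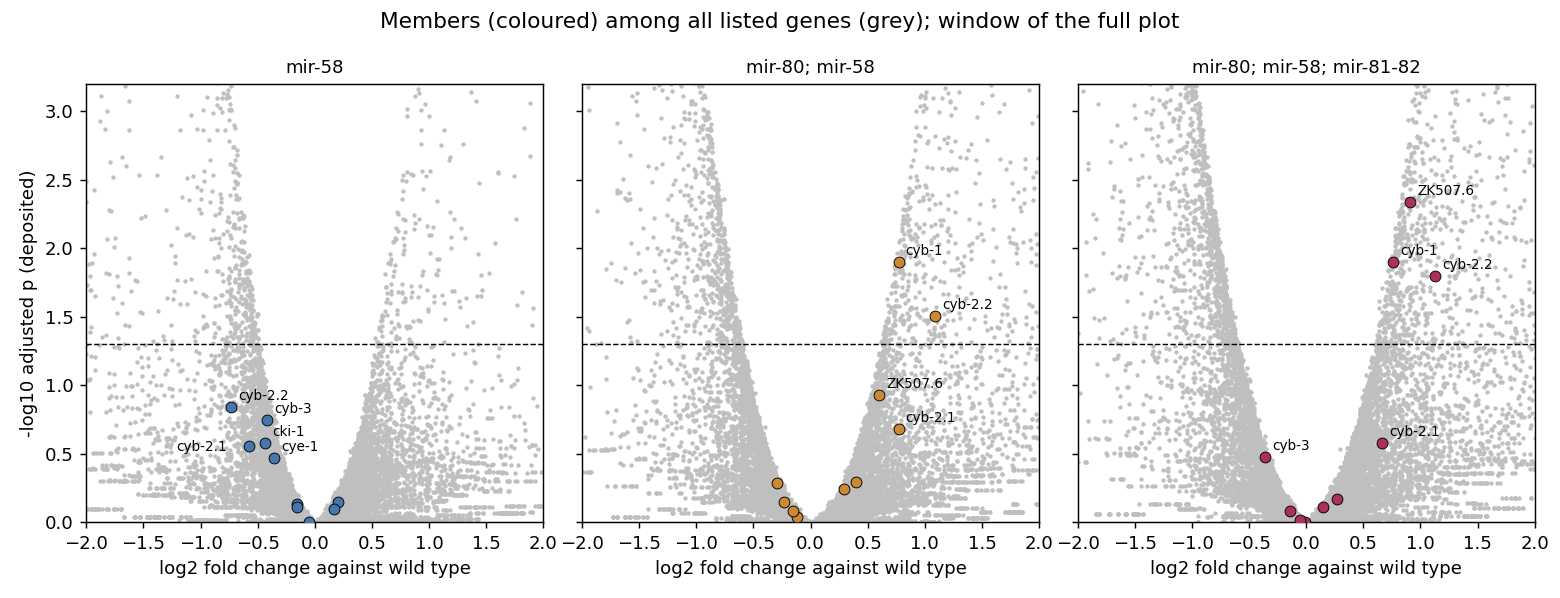
Log2 fold change (horizontal) against -log10 of the adjusted p (vertical) for all listed genes (grey) and the 10 cell cycle genes (coloured), one panel per mutant; the dashed line marks the threshold for a call, and genes outside the plotted window are left out. Members lie below the line in mir-58, whereas cyb-1 and cyb-2.2 lie above it in both multiple mutants, and ZK507.6 in the quadruple mutant.

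Differences between successive mutants were formed by subtracting deposited log2 fold changes, in which wild type cancels; these have no test. From mir-58 to the double mutant the difference was 1.82 for cyb-2.2, 1.35 for cyb-2.1 and 0.93 for cyb-1. Among all listed genes these lay at the 90.9, 88.9 and 85.2 percentile. Cyclin E followed at 0.65 and cdk-2 at 0.45, while cyb-3 (0.13), cdk-1 (0.01) and cki-1 (0.21) differed less and cyd-1 stood at -0.29. The median over the 9 genes was 0.45, and over all genes 0.04. It was not computed without the close copies cyb-2.1 and cyb-2.2, which had the largest differences. The strains also differ by 6 h in collection time.

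From the double to the quadruple mutant, collected at different times and differing by nDf54, the 9 genes moved little. Their differences ran from -0.14 (cye-1) to 0.18 (cki-1), with a median size of 0.11 regardless of sign, against 0.18 for all genes. The B-type genes stood at -0.01 (cyb-1), -0.11 (cyb-2.1), 0.04 (cyb-2.2) and -0.07 (cyb-3). ZK507.6 was at 0.31, at the 82.1 percentile of all genes.

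**Figure D3:**
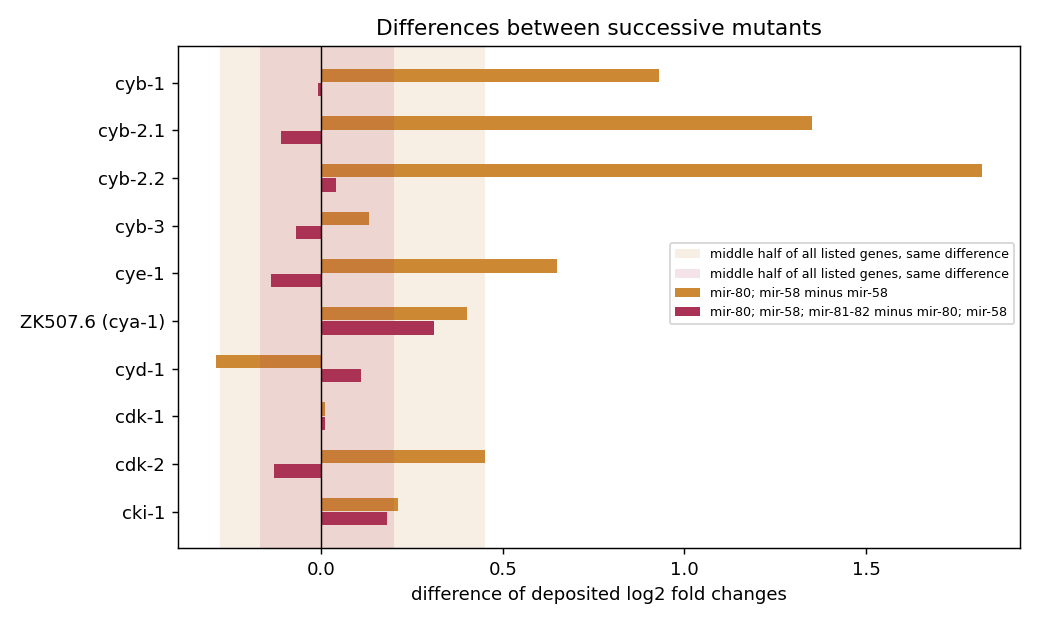
Differences of deposited log2 fold changes (horizontal axis) between the double mutant and mir-58 (orange) and between the quadruple and the double mutant (red) for each gene; shaded bands span the interquartile range of the same difference over all listed genes. The orange bars of cyb-1, cyb-2.1 and cyb-2.2 reach 0.93 to 1.82 and that of cye-1 reaches 0.65, beyond the band that ends at 0.45, and the red bars of the 9 named genes stay between -0.14 and 0.18.

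Other genes of the cell cycle were counted in 6 lists. Of 16 further cyclin and kinase genes, which include the cyclin D partner cdk-4, the second inhibitor cki-2 and kinases that act in transcription, none was called in any mutant by the authors' DESeq test, and none had a recovered unadjusted p under 0.05. Their medians were -0.03, 0.15 and 0.29. The adjacent gene of cki-1 is its paralogue cki-2, which stood at -0.29, 0.33 and 0.50 per the authors' deposited table. Regulators of CDK phosphorylation, binding and turnover gave no call in 16 genes by the same test, with 1, 1 and 2 recovered unadjusted p-values under 0.05 in the 3 mutants. The 13 listed subunits and activators of the anaphase promoting complex, which marks B-type cyclins for destruction, gave none either, with 2, 0 and 2 recovered unadjusted p-values under 0.05. Of all genes, 7.44%, 16.4% and 24.0% were called in the 3 mutants. A recovered unadjusted p under 0.05 was found for 18.5% of all genes in mir-58. That share was not computed for the multiple mutants, so the counts there have no background.

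In the E2F, Rb and DREAM list, whose products control the transcription of cell cycle genes, 1 of 9 genes was called. That call was in the quadruple mutant, where 14.2% of all genes were called higher, so 1 of 9 is not above that share. The called gene was lin-52, a DREAM subunit gene, which rose in the quadruple mutant (adjusted p = 2.89e-04) and had values of -0.20, 0.67 and 1.38, per the authors' deposited table. Of 38 DNA replication and checkpoint genes, 1 rose in mir-58 (2.63%, against 1.65% of all genes called higher). In the double mutant 2 rose (5.26%, against 10.5%), and in the quadruple mutant 6 rose (15.8%, against 14.2%). None fell in any mutant. The checkpoint kinase gene atl-1 (ATR) accounted for the call in mir-58 and stood at 1.09, 1.42 and 2.27 per the authors' deposited table (adjusted p = 9.43e-05, 6.08e-06 and 6.10e-16). In both multiple mutants the helicase gene mcm-6 rose, at 0.63 and 0.66 per the authors' deposited table, and the clamp loader gene rfc-1 and the ribonucleotide reductase gene rnr-2 rose in the quadruple mutant, at 0.71 and 0.64.

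Mitotic kinase, spindle and chromosome segregation genes gave more calls. Of 44 listed, 6 fell and 1 rose in mir-58 (13.6% lower, against 5.79% of all genes). The 6 that fell stood between -0.65 and -0.56, and the list median in mir-58 was -0.19. In the double mutant 7 rose (15.9%, against 10.5% of all genes) and in the quadruple mutant 10 rose (22.7%, against 14.2%), and none fell in either. The 4 genes named here had the smallest p in any mutant, so they do not show the direction of the list in mir-58. The condensin gene mix-1, the 1 that rose in mir-58, was at 0.69, 1.12 and 1.36 per the authors' deposited table (adjusted p = 0.0146, 5.65e-05 and 4.80e-07). Its partner smc-4 was at 0.27, 0.80 and 0.94 per the authors' deposited table, called in both multiple mutants. The centrosome scaffold gene spd-5 was at 0.92 and 0.72, and the Aurora B kinase gene air-2 at 0.81 and 0.99, in the double and quadruple mutant per the authors' deposited table. All 4 were called in each multiple mutant.

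Because many of these genes act in the germ line, marker lists of germ cells, gametes and the vulva are set beside the members. In mir-58, where the median of the members was -0.36, 10 of 25 germline proliferation and meiosis genes fell and none rose (median -0.55, range -0.97 to 0.05). Of 21 oocyte genes 9 fell and 1 rose (median -0.63, range -4.20 to 0.97), and of 18 sperm genes 11 fell (median -2.67). The shares lower were 40.0%, 42.9% and 61.1%, against 5.79% of all genes. In the double mutant 2 of 25, 11 of 21 and 17 of 18 genes of these lists rose (medians 0.30, 0.77 and 3.37). These were 8.0%, 52.4% and 94.4%, against 10.5% of all genes called higher. In the quadruple mutant 1, 8 and 17 rose (4.0%, 38.1% and 94.4%, against 14.2%), with medians of 0.20, 0.70 and 3.24. None was called lower in either multiple mutant. The germline list was thus not called higher more often than all genes in either. Its medians of 0.30 and 0.20 were above those of all genes, at 0.08 and 0.11. By smallest p, the germline genes were led by pgl-3, for a P granule component, which fell to -0.97 in mir-58 and stood uncalled at 0.42 and 0.27 in the multiple mutants per the authors' deposited table. Next came gld-1, for a translational repressor, uncalled at -0.50 in mir-58 and risen to 0.97 and 0.83 per the authors' deposited table, the only germline gene called in the quadruple mutant. The synapsis gene syp-1 (-0.84) and nos-3 (-0.63), for a Nanos-type regulator, fell in mir-58 per the authors' deposited table. In the multiple mutants syp-1 stood at 0.50 and 0.70 and nos-3 at -0.12 and -0.26, without a call. Among the oocyte genes, perm-4, for an eggshell component, listed as C44B12.5, had the smallest p and was at -4.20, 3.22 and 1.94 per the authors' deposited table. The eggshell proteoglycan gene cpg-2 was at -0.70, 1.24 and 1.32 per the authors' deposited table. In the same list lin-41 went the other way, risen to 0.97 in mir-58 (adjusted p = 4.27e-05 by the authors' DESeq test). In the multiple mutants lin-41 stood uncalled at -0.01 and -0.24. For the sperm genes the smallest p was that of spch-1, for a sperm chromatin protein, listed as C04G2.8, with -3.73, 4.19 and 4.02 per the authors' deposited table. Of 12 listed vulva and epidermis genes none was called in mir-58. A recovered unadjusted p under 0.05 was found there for 3 of the 12 and for 18.5% of all genes. In each multiple mutant 1 of the 12 rose (8.33%, against 10.5% and 14.2% of all genes called higher). The risen gene was let-23, the EGF receptor gene, at 1.14 and 1.51 per the authors' deposited table. The part of germ cell or gamete content in the values of the cyclin genes was not tested.

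**Figure D4:**
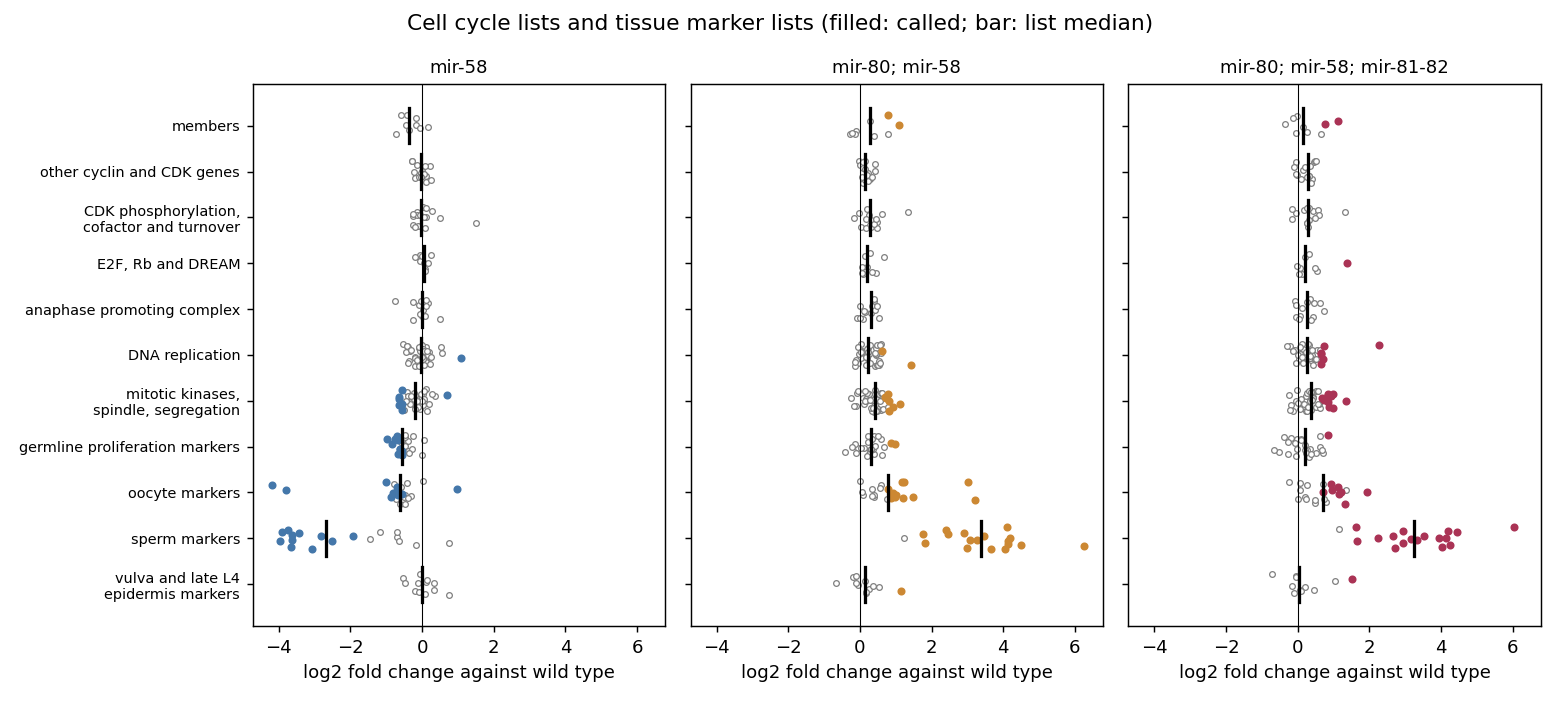
Log2 fold change against wild type (horizontal axis) of the 9 members and of the genes of 10 lists, one row per list and one panel per mutant; filled points were called at adjusted p under 0.05 and vertical bars mark list medians. The sperm list has its median at -2.67 in mir-58 and at 3.37 and 3.24 in the multiple mutants, while the medians of the 9 members lie at -0.36, 0.29 and 0.15.

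Genes with the most similar values to a called member were found by Euclidean distance over the 3 log2 fold changes; with 3 values that share wild type, such likeness is a description. Closest to cyb-1 was the linker histone gene his-24, at -0.18, 0.80 and 0.75 per the authors' deposited table (distance 0.037). T19B10.6 and fbxa-215, an F-box gene, followed at distances of 0.062 each, and fbxa-215 was not called in any mutant. Closest to cyb-2.2 was puf-3, which encodes an RNA-binding protein of the PUF family, at -0.75, 1.17 and 1.12 per the authors' deposited table (distance 0.083). It was followed by egg-1, for an oocyte surface receptor needed for fertilisation, at a distance of 0.110 and by R102.11 at 0.112. Nearest to ZK507.6 were F31E9.3, C33H5.6 and D1005.3, at distances of 0.022, 0.041 and 0.042. Of these, D1005.3 was called in the quadruple mutant only, and F31E9.3 and C33H5.6 were not called in any mutant.

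The protein-coding genes next to each of the 9 members in the WBcel235 annotation were also read, and 16 of 18 were listed. Of these 16, none was called higher and 2 lower in mir-58, and 2 were called higher and 3 lower in each multiple mutant. Among all genes the shares higher and lower were 1.65% and 5.79% in mir-58. They were 10.5% and 5.86% in the double and 14.2% and 9.82% in the quadruple mutant. Whether the neighbours differ from all genes was not tested. The median log2 fold changes of the 16 neighbours were -0.24, 0.08 and 0.23. The called neighbours of members that are cyclin E or B-type genes are named here, chosen after their values were seen. On the same strand as cyb-1, grl-21, a hedgehog-related gene, fell in the 3 mutants, to -0.53, -1.65 and -1.93 per the authors' deposited table, and next to cyb-2.1 Y43E12A.2 fell to -0.82 and -0.73 in the multiple mutants. Next to cyb-2.2, delm-2, listed as C24G7.1, rose to 2.44 and 5.33 there, per the authors' deposited table (adjusted p = 0.00373 and 6.12e-29), and acdh-5, next to cye-1, to 4.22 and 4.13. Among uncalled neighbours, T06E6.1 lay close to cyb-3, at -0.43, -0.27 and -0.47 per the authors' deposited table. None of the 9 members overlaps another annotated protein-coding gene.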

How the data were processed

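RNA libraries from 12 samples (4 genotypes, 3 each) were grouped by their titles. The authors deposited 1 table, which for each mutant gives every gene's log2 fold change over wild type and its adjusted p-value, per the file headers. The submitters' processing notes name DESeq and no version. The aligner, counting program, genome build and adjustment method are not given in the sources used here. Depth per sample is unknown, and no interval can be given. The planned fit to counts was not used, because the table holds none.

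Members were matched by name, and list genes by symbol (185 of 229) or by RefSeq sequence name (27), with 17 unmatched. Ensembl release 115 (WBcel235) served for neighbours; no coordinates are given. Members and lists were chosen with earlier results of these data known. Genes were named by rule: all members, up to 4 called genes per list with the smallest p (some of these are left out of the text), and the 3 nearest patterns of up to 3 called members. Genes neighbouring members, and the list genes cdk-4 and cki-2, were named outside the rule. Counts of calls and the search for nearest patterns were tested on shuffled values with planted changes. The search for adjacent genes was not tested in this way. No sequences were used here. Python 3.11.15, numpy 2.4.6, pandas 2.3.3 and matplotlib 3.10.9 were used.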

Additional observations from a re-analysis of the deposited data

How the results depend on the processing

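At an adjusted p under 0.01, 0 of the 9 genes were called in the double mutant and 0 in the quadruple mutant, in place of 2 each; ZK507.6, outside the 9, passed it in the quadruple mutant. Without cyb-2.1 and cyb-2.2, 1 gene (cyb-1) was called in each multiple mutant. A threshold of 0.1 left 2 calls in each and 0 in mir-58. Requiring at least 1.5-fold and centring on the median of all genes gave the same counts, which these settings could not change. Neither can add a call, the smallest called change was 1.52-fold in each multiple mutant, and centring kept the deposited p-values. Counting ZK507.6, an alternative added after the data were seen, gave 3 in the quadruple mutant. In the order mir-58, double and quadruple, the members' median moved to -0.30, 0.21 and 0.04 after centring, -0.16, -0.12 and -0.01 without cyb-2.1 and cyb-2.2, and -0.26, 0.345 and 0.21 with ZK507.6; the mean was -0.303, 0.281 and 0.268. The sign of the median in the multiple mutants thus depends on the cyb-2 pair. No paired analysis was possible because the table holds no values per sample. For the same reason, leaving out replicates, DESeq2 size factors and a low-count filter were not run.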
